A study of Mus musculus with 6 samples.

Results

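The expression profile described here is that of 3 libraries of RAW264.7 cells labelled RANKL, out of 6 libraries in the series. RAW264.7 is a macrophage line from a mouse tumour, and RANKL is the cytokine that drives macrophage precursors towards osteoclasts, the cells that resorb bone. All 6 samples are labelled wild type and as osteoclast differentiation, and the protocol in the labels gives RANKL at 50 ng/mL to cells 3 days past confluence. The time from RANKL to harvest was not stated in the labels, and no culture without RANKL was analysed here, so a level cannot be assigned to RANKL. The other 3 libraries, labelled albiflorin, were not used. The genes are the 20461 rows with the biotype protein_coding among 41921 rows of the deposited tables, and 764 of 784 listed symbols for macrophage, osteoclast, lysosomal, metabolic, cell cycle and control genes were matched to such a row. Nothing in the labels says that the 3 replicates came from separate cultures, so each SD is a spread over libraries that may be no more than technical.

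A precursor becomes an osteoclast when RANKL binds RANK on its surface while the M-CSF receptor keeps the cell alive. RANK signals through TRAF6 to NF-kB and AP-1, adaptor chains with tyrosine activation motifs add a calcium signal, and both meet on the transcription factor NFATc1. The cells then fuse, seal themselves to bone, pump acid through a vacuolar proton pump and secrete the collagenase cathepsin K, so lysosomal and mitochondrial genes form part of the programme beside the dedicated osteoclast genes.

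Levels are FPKM, fragments per kilobase of listed gene length, scaled to the size of the library, as the authors deposited them. A rank of 1 is the highest mean FPKM among protein_coding rows, a percentile is the percentage of protein_coding rows with a lower FPKM, and values are given for replicates 1, 2 and 3 in that order or as mean ± SD (n = 3). A gene was counted as detected at 1 FPKM or more in all 3 libraries, which held for 9783 rows (47.8% of protein_coding rows), and as high at 50 FPKM or more in all 3, which held for 999 (4.88%). No read was found for 6460 rows. The libraries held 13673284, 15489482 and 14663862 reads, and 95.8% to 95.9% of reads fell on protein_coding rows. The median protein_coding row had 0.713 ± 0.0120 FPKM and the median detected gene 12.1 ± 0.0861 FPKM. Levels were concentrated in few genes: 660, 708 and 676 genes made up 50% of the protein_coding FPKM in replicates 1, 2 and 3. Where a gene had no read, 3 reads in the library where they would weigh most were taken as the upper limit, and such limits cover counting error only. Of the 662 matched genes of the 5 described classes, 584 were detected (88.2%) and 169 were high (25.5%).

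**Figure D1:**
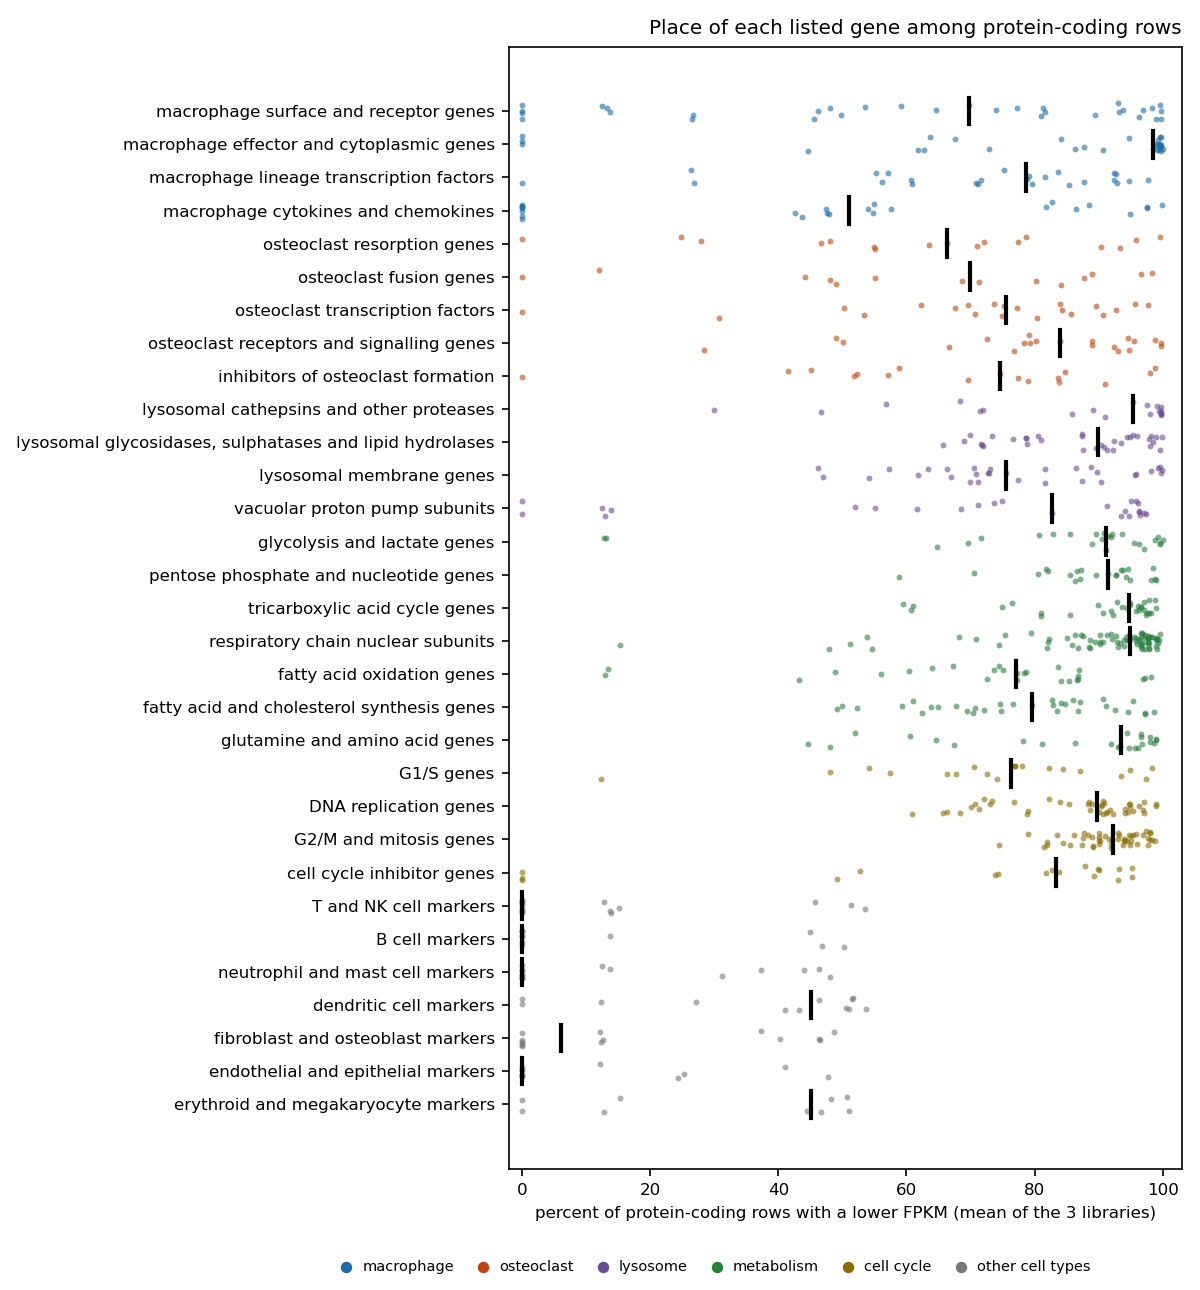
Each point is 1 gene of the list named on the vertical axis, placed by the percentage of protein_coding rows with a lower FPKM (mean of the 3 RANKL libraries), with vertical scatter inside a list for legibility only; black bars are list medians and colours the classes. Macrophage effector genes had the highest median of the 24 lists of the 5 classes, the chemokine list the lowest, and markers of other cell types lay at the left.

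Among protein_coding rows, the most abundant transcripts were those of Fth1, Pkm and a number of ribosomal protein genes. Outside those rows, 2 rows without a biotype matched to the lysozyme gene Lyz2 had means of 4086 and 3729 FPKM. Fth1, the ferritin heavy chain, was the highest protein_coding row at 4234, 3677 and 4268 FPKM. Pkm, the pyruvate kinase of the last step of glycolysis, came next at 2475, 2249 and 2397 FPKM. The Fth1 values lay above all Pkm values in every library. Among the 20 highest rows with a symbol, 11 were ribosomal protein genes, and the 85 ribosomal protein genes together held 11.7% ± 0.196 of the protein_coding FPKM. Of the 20 highest named rows outside the ribosomal protein genes, B2m, the light chain of MHC class I, stood at 1807 ± 73.7 FPKM and Fxyd2, a regulatory subunit of the sodium pump, at 1627 ± 7.12 FPKM, with rank 7. Gm10073 (1832 ± 132 FPKM) is a predicted gene whose product the table matches to ribosomal protein P1. Elongation factor Eef2 (1389 ± 95.1), the protease inhibitor cystatin C gene Cst3 (1335 ± 53.1), the membrane protein gene Serinc3 (1019 ± 49.8) and the prothymosin gene Ptma (961 ± 129) followed. Chaperone Hsp90ab1, cofilin gene Cfl1, beta-actin gene Actb, nucleophosmin gene Npm1 and thymosin gene Tmsb4x had means between 607 and 824 FPKM. Another 5 of these 20 were genes of the lysosome and of immune functions: Lamp1 (818), Psap (679.7), Mif (605), Ctsz (602) and the invariant chain gene Cd74 (593 FPKM).

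The macrophage marker genes were mostly high, the wider macrophage class less so. Of the 10 marker genes matched to a row, 8 were detected and 6 were high, with a median percentile of 98.6 ± 0.0649. Over the whole macrophage class, 79 of 111 matched genes were detected (71.2%) and 26 were high (23.4%). The class had a median percentile of 77.3 ± 0.425. Cd68, a glycoprotein of late endosomes, stood at 597, 514 and 608 FPKM (rank 46). Csf1r, the M-CSF receptor, had 405, 387 and 401 FPKM. The endotoxin co-receptor gene Cd14 had 405, 347 and 406 FPKM, a range that overlapped that of Csf1r. Tyrobp, the adaptor DAP12, had 399 ± 28.0 FPKM and Mpeg1, a pore-forming protein of phagosomes, 383 ± 0.910 FPKM. The master factor of the myeloid lineage, Spi1 (PU.1), stood at 91.4, 86.7 and 96.8 FPKM, the high-affinity Fc receptor gene Fcgr1 at 46.8, 42.4 and 42.3 and Adgre1, which encodes F4/80, at 30.2, 28.0 and 27.1 FPKM. In the order of the 8 detected markers, the ranges of Tyrobp, Csf1r, Cd14 and Mpeg1 overlapped from neighbour to neighbour, whereas Cd68, Spi1, Fcgr1 and Adgre1 were each separated from their neighbours in every library. Mertk, a receptor for dying cells, had 0, 0 and 3 reads.

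Itgam, which encodes CD11b, lay on 2 rows. The protein_coding row that carries the symbol (chromosome 7, from 137621388) had 1, 0 and 0 reads, and the overlapping protein_coding row without a symbol (MGP_C57BL6NJ_G0033564), whose product the table matches to the same protein, had 24.8, 30.6 and 27.0 FPKM. The named row alone therefore does not give the level of this gene. Lyz2, the lysozyme of macrophages, was matched only to rows outside the protein_coding biotype. Its 2 rows without a biotype are given in the closing section.

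Within the 33 matched macrophage surface and receptor genes, 20 were detected and 7 were high, with a median percentile of 69.7 ± 0.841. Below Cd68, Csf1r and Cd14 came the fractalkine receptor gene Cx3cr1 (174, 178 and 182 FPKM), the inhibitory receptor gene Sirpa (114 ± 3.38), Tlr2 (75.1 ± 1.93) and the integrin beta chain gene Itgb2 (64.4 ± 1.08 FPKM). Tlr4 stood lower, at 15.0, 17.9 and 15.3 FPKM. The scavenger receptor genes Cd163 and Marco, Timd4, a receptor for dying cells, and Lyve1, a hyaluronan receptor, had no read in any library, with upper limits of 0.0401, 0.114, 0.101 and 0.0841 FPKM, and the mannose receptor gene Mrc1 had 0.209 ± 0.0131 FPKM. The sialic acid receptor gene Siglec1 (3.79 ± 0.191) and the folate receptor gene Folr2 (1.64 ± 0.390 FPKM) were detected. The inflammatory monocyte receptor gene Ccr2 (0.676 ± 0.0937) and the scavenger receptor gene Cd36 (0.271 ± 0.106 FPKM) lay below 1 FPKM in every library.

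The promoter of Fcgr1 is shown as an example of a window of this list that holds GAGGAAG, the letters of the core that PU.1 is known to bind in myeloid promoters. The window runs from 250 bases before to 50 bases after the start in RefSeq on GRCm38.p6 (chr3:96293920-96294219, minus strand), is written 5′ to 3′ along the gene, and has the match in capitals, here on the opposite strand.
Fcgr1: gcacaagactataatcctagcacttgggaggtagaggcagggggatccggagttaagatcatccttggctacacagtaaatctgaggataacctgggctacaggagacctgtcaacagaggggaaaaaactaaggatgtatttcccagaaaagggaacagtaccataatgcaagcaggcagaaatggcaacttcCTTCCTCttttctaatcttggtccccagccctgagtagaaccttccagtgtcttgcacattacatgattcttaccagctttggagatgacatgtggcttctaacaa
These letters, on either strand, occurred in 10 of 23 windows of the surface and receptor genes (43.5%), in 1015 of 7599 windows of detected genes (13.4%) and in 1920 of 14762 windows matched to a protein_coding symbol (13.0%). The other macrophage lists held them in 4 of 22 (effectors), 2 of 19 (transcription factors) and 4 of 17 (cytokines) windows, and the whole macrophage class in 24.7%. Inhibitors of osteoclast formation held them in 6 of 13 windows, and the nearly absent markers of other cell types in 14 of 67 (20.9%). A window was found for 14762 of 19692 symbols, and a match is a description of the letters only.

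The macrophage effector and cytoplasmic genes had the highest median percentile of the described lists (98.5 ± 0.0732), with 25 of 29 detected and 15 high. After Fth1 they were led by the lysosomal protease gene Ctss (609.7, 565 and 599 FPKM) and by Spp1, which encodes osteopontin, a secreted phosphoprotein of macrophages and bone (449, 430.4 and 467 FPKM). The asparagine endopeptidase gene Lgmn (396 ± 31.6), the lysosomal membrane gene Laptm5 (351 ± 10.3), the galectin gene Lgals3 (292 ± 25.8) and Gpnmb, a glycoprotein of lysosome-rich macrophages (222, 207 and 223 FPKM), were also high. Both membrane subunits of the phagocyte oxidase, Cyba (311 ± 33.2) and Cybb (293 ± 9.46), exceeded the cytosolic subunits Ncf1 (131 ± 1.36) and Ncf4 (49.3 ± 2.28 FPKM) in every library. The complement genes C1qa, C1qb and C1qc had no read, with upper limits of 0.211, 0.202 and 0.114 FPKM. Apoe, a lipid carrier gene, stood at only 4.91, 5.29 and 6.85 FPKM and the arginase gene Arg1 at 0.145, 0.0630 and 0.466 FPKM.

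Of the macrophage lineage transcription factors, 22 of 25 were detected (median percentile 78.7 ± 0.724). Spi1 was the 1 high member, or 4% of the list, near the 4.88% of all protein_coding rows. Cebpb (48.2, 52.9 and 49.9 FPKM) and Stat6 (40.0, 38.7 and 37.9 FPKM) came next, and the Cebpb values lay above all Stat6 values. Irf8, a factor of the monocyte lineage that holds back Nfatc1, stood at 19.8, 18.2 and 19.4 FPKM. Maf, a factor of mature macrophages, had no read (upper limit 0.0266 FPKM). Pparg had 0, 0.0645 and 0.0227 FPKM.

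The macrophage cytokines and chemokines had the lowest median percentile of the 24 lists (51.0 ± 0.503), with 12 of 24 detected (50%). Both values were near those of all protein_coding rows, with a median percentile of 50.0 and 47.8% detected. Mif, a cytokine stored in most cells, reached 621, 562 and 631 FPKM. The chemokine genes Ccl3 (90.9, 83.4 and 96.4 FPKM) and Ccl9 (90.7, 95.6 and 83.1 FPKM) overlapped each other. Tnf had 23.7, 24.4 and 32.2 FPKM and was highest in replicate 3, and Ccl4 had 19.9, 24.1 and 24.8 FPKM. Il6, Il10, Il12b, Ccl2, Ccl7, Chil3 and Retnla had no read in any of the 3 libraries, and Il1b had 0.115, 0.0999 and 0.0704 FPKM.

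Among protein_coding rows, the listed markers of cell types that a contaminated culture could hold were nearly absent. Of 89 matched markers of T and NK, B, neutrophil and mast, dendritic, fibroblast and osteoblast, endothelial and epithelial, and erythroid and megakaryocyte cells, 2 were detected, 41 had no read in any library and none was high. Their summed level was 14.5, 16.1 and 17.4 FPKM. The detected ones were the costimulatory receptor gene Cd28 (1.54, 1.80 and 1.58 FPKM) and the MHC class II gene H2-Aa (1.44, 1.53 and 2.08 FPKM). Among the defining markers at 0 reads were Cd3e, Mpo, Ccr7, Pdgfra and Epcam. The collagen gene Col1a1 had 0.0112, 0.00970 and 0.0308 FPKM. Immunoglobulin gene rows have biotypes of their own and lay outside these lists. The 13 rows of the biotype IG_C_gene held 0.0367%, 0.0363% and 0.0387% of all reads in replicates 1, 2 and 3. The source of these reads was not tested.

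**Figure D2:**
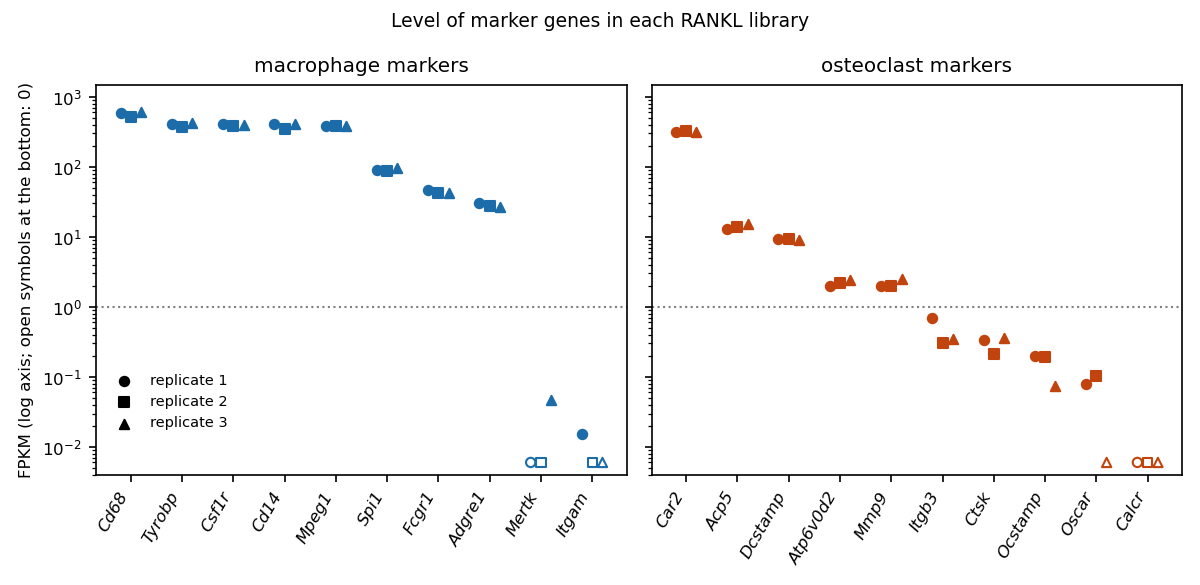
FPKM on a log axis of the 10 matched macrophage markers (left) and the 10 osteoclast markers (right) in each RANKL library, with circles, squares and triangles for replicates 1, 2 and 3; open symbols at the bottom are values of 0 and the dotted line is 1 FPKM. Cd68 is near 573 FPKM, the Itgam point is the row that carries the symbol, Car2 stands apart from the other osteoclast markers, and Calcr is at 0 in all 3 libraries.

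Osteoclast markers were uneven. Of the 10 fixed markers, 5 were detected (50%) and 1 was high (10%), against 47.8% and 4.88% of all protein_coding rows. The detected share was thus near that of all rows. The median percentile of these markers was 51.4 ± 0.765, near that of the median protein_coding row. Over the whole osteoclast class, 69 of 88 matched genes were detected (78.4%) and 12 were high (13.6%). The class had a median percentile of 77.2 ± 0.411, which overlapped that of the whole macrophage class. Car2, the carbonic anhydrase that supplies protons to the pump, stood at 317, 324 and 317 FPKM (rank 96; MGP_C57BL6NJ_G0027496, chromosome 3, 12837470 to 12853700). Acp5, the tartrate-resistant acid phosphatase by which osteoclasts are stained, had 12.9, 13.9 and 15.5 FPKM (rank 4351; MGP_C57BL6NJ_G0034969, chromosome 9, 20192467 to 20201429), just above the median of detected genes. Dcstamp, a membrane protein required for fusion, had 9.20, 9.24 and 9.03 FPKM. The separation of these 3 genes held in every library.

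The remaining fixed markers, set apart here by level alone and not by stage, were lower. Atp6v0d2, the pump subunit of osteoclasts, had 1.99, 2.22 and 2.42 FPKM, and the gelatinase gene Mmp9 had 1.96, 1.99 and 2.50 FPKM, so the 2 overlapped. Integrin beta3 gene Itgb3 had 0.694, 0.301 and 0.353 FPKM, with replicate 1 the highest. Ctsk, the cathepsin that cleaves bone collagen (MGP_C57BL6NJ_G0028004, chromosome 3, 99797787 to 99809616), had 7, 5 and 8 reads, or 0.338, 0.210 and 0.355 FPKM (rank 10887). The second fusion gene Ocstamp had 0.200, 0.191 and 0.0734 FPKM, and the receptor gene Oscar had 2, 3 and 0 reads. The calcitonin receptor gene Calcr had no read in any library, which allows up to 0.0560 FPKM. In bulk RNA, fewer cells of a type and less RNA per cell cannot be told apart, so these levels do not say what share of the cultured cells had begun to fuse.

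The wider list of osteoclast resorption genes had 12 of 17 detected and 2 high, and its median percentile was 66.3 ± 0.691. Besides Car2, the high member was Tcirg1, the a3 subunit of the proton pump, at 56.3, 57.3 and 65.7 FPKM. The creatine kinase gene Ckb (40.7 ± 1.80), the vesicle adaptor gene Plekhm1 (30.4 ± 0.191), the chloride exchanger gene Clcn7 (12.4, 12.9 and 14.0) and its beta subunit gene Ostm1 (6.59, 7.11 and 6.56 FPKM) were detected, and the ranges of Acp5 and Clcn7 overlapped. The matrix metalloproteinase gene Mmp14 had 1, 0 and 1 reads.

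Among the osteoclast fusion genes, 9 of 14 were detected (median percentile 69.9 ± 0.0553). The tetraspanin genes Cd9 (111, 114 and 117 FPKM) and Cd81 (67.4, 69.7 and 73.6 FPKM) were high, and the protease gene Adam8 had 26.9, 25.8 and 28.8 FPKM. Siglec15, a receptor of fusing cells, differed widely between replicates, at 0.253, 1.15 and 0.523 FPKM, and Tspan7 and Adam12 had 0, 0 and 1 and 0, 0 and 0 reads.

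Of the osteoclast transcription factors, 18 of 21 were detected and 2 were high (median percentile 75.6 ± 0.753). The high members were Junb and Spi1, which is also on the list of macrophage lineage factors. Nfatc1 (MGP_C57BL6NJ_G0025009) stood at 19.1, 21.1 and 19.6 FPKM (rank 3211), and its range overlapped that of its relative Nfatc3 (19.2, 19.8 and 18.7 FPKM). The AP-1 gene Junb had 58.6, 52.4 and 63.5 FPKM and Fos 7.40, 7.16 and 10.6 FPKM, with replicate 3 the highest for both. Mef2a (38.0 ± 1.54), a factor of the MEF2 family, and Jdp2 (28.6 ± 0.972 FPKM), an AP-1 partner, were detected. Myc, which drives growth and is known to act early in osteoclast formation, had 0, 11 and 10 reads, and Prdm1, a repressor that removes the brakes on osteoclast formation, had none (upper limit 0.0393 FPKM).

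The osteoclast receptors and signalling genes had 18 of 21 detected and 4 high, with a median percentile of 83.9 ± 1.70. The lists share members: the high genes Tyrobp, Csf1r and Fcer1g are also on the macrophage lists. RANK, encoded by Tnfrsf11a (MGP_C57BL6NJ_G0016767), had 14.1, 15.5 and 13.9 FPKM, below Csf1r and Tyrobp in every library, and Traf6, its adaptor, 7.21, 6.49 and 6.87 FPKM. The second adaptor with an activation motif, Fcer1g, had 159 ± 2.75 FPKM, and the receptor that pairs with Tyrobp, Trem2, 39.6, 37.9 and 40.9 FPKM. The kinase gene Src, required for the ruffled border, had 0.668, 0.610 and 0.414 FPKM. Among the inhibitors of osteoclast formation, 13 of 17 were detected (median percentile 74.7 ± 1.44): the phosphatase gene Ptpn6 (148 ± 6.06), the NF-kB inhibitor gene Nfkbia (101 ± 0.973) and the phosphatase gene Inpp5d (31.7 ± 1.20 FPKM) were highest, and at the bottom the T-box factor gene Eomes had 3, 9 and 3 reads and the RANKL decoy gene Tnfrsf11b none.

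Lysosomal genes stood high as a class. Of 109 matched genes, 100 were detected and 35 were high, and they held 3.06% ± 0.0524 of the protein_coding FPKM. The membrane glycoprotein gene Lamp1 was the highest, at 827, 843 and 785 FPKM (rank 27; MGP_C57BL6NJ_G0033866, chromosome 8, 10850178 to 10869696), and its relative Lamp2 had 57.8, 58.0 and 57.3 FPKM. Psap, the precursor of the sphingolipid activator proteins, had 698, 657 and 684 FPKM. The tetraspanin gene Cd63 had 258, 204 and 246 FPKM, with replicate 2 the lowest.

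The list of lysosomal cathepsins and other proteases, which also holds the lipase gene Pla2g15, had 17 of 19 detected and 10 high (median percentile 95.3 ± 0.179). Ctsz (652, 506 and 648 FPKM) and Ctss (609.7, 565 and 599 FPKM) overlapped, and so did Ctsb (471, 417 and 454 FPKM) and Ctsd (443, 400.0 and 439.8 FPKM), the general cysteine and aspartic proteases of the lysosome. Ctsl had 203, 197 and 198 FPKM. Set against the near relatives Ctss and Ctsl, Ctsk made up 0.0379% ± 0.00908 of the summed FPKM of the 3, Ctss 74.8% ± 0.536 and Ctsl 25.2% ± 0.545. By mRNA length the share of Ctsl was 9.69%. Ctsw, a protease of cytotoxic lymphocytes, was the lowest of the list at 0, 0.155 and 0.218 FPKM.

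All 34 genes of the list of lysosomal glycosidases, sulphatases and lipid hydrolases were detected, 10 of them high (median percentile 89.9 ± 0.503). This list also holds genes of other functions, among them the activator precursor gene Psap. After Psap the list was led by Hexa, the alpha chain of beta-hexosaminidase (389.9, 373 and 373 FPKM), and the acid lipase gene Lipa (175, 179 and 157 FPKM). The lowest were the arylsulphatase gene Arsa (9.71, 7.08 and 7.37 FPKM) and the iduronidase gene Idua (6.71, 6.00 and 6.72 FPKM). Of the lysosomal membrane genes, 29 of 31 were detected (median percentile 75.6 ± 0.856), from Lamp1, Cd68 and Laptm5 down to the transporter gene Abcb9 (0.286, 0.215 and 0.251 FPKM) and Laptm4b (0.539, 0.268 and 0.212 FPKM).

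The promoter of Lamp1 is shown as the highest lysosomal gene whose window holds GTCACGTG, the extended E-box to which the TFEB family is known to bind (chr8:13158911-13159210, plus strand, RefSeq, GRCm38.p6, 250 bases before to 50 after the start). Capitals mark the match, which lies on the opposite strand and reads CACGTGAC.
Lamp1: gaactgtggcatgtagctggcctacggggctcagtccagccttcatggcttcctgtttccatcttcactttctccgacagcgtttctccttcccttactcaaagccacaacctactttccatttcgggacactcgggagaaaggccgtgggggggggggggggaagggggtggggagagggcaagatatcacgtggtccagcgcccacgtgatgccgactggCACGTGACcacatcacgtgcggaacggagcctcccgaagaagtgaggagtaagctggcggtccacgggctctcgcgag
GTCACGTG on either strand occurred in 13 of 87 windows of lysosomal genes (14.9%), in 4.79% of windows of detected genes and in 3.14% of all windows. Within the class it was in 5 of 26 windows of membrane genes, 5 of 27 of the hydrolase list, 2 of 19 of proton pump genes and 1 of 15 of the cathepsin list. Outside it, inhibitors of osteoclast formation (2 of 13), fatty acid and cholesterol synthesis genes (3 of 24) and dendritic cell markers (2 of 9) had like shares. The whole macrophage, osteoclast, metabolism and cell cycle classes held GTCACGTG in 1.23%, 6.15%, 3.5% and 4.76% of windows. Of the factors of that family, Mitf had 19.1, 20.4 and 18.6 FPKM, Tfe3 11.5, 11.1 and 11.4, Tfeb 4.94, 4.96 and 5.27 and Tfec 0, 0.0681 and 0.0360 FPKM, and the first 3 did not overlap. Mitf made up 54.1% ± 1.65 of their summed FPKM, but 35.6% against 46.2% for Tfe3 when reads were divided by an mRNA length, which turns their order.

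The proton pump of lysosomes and of the ruffled border is built from subunits with alternative forms. Of 25 genes, 20 were detected and 8 high (median percentile 82.7 ± 1.01), led by Atp6v1c1 (91.1, 78.0 and 88.6), Atp6v1a (81.1, 80.1 and 77.5) and Atp6v1f (76.1, 60.8 and 68.5 FPKM). Among a subunits Tcirg1 held 75.2% ± 2.17 of the summed FPKM, Atp6v0a2 13.3% ± 1.05 and Atp6v0a1 11.5% ± 1.12, while the kidney form Atp6v0a4 had 1, 0 and 0 reads. Among d subunits the general form Atp6v0d1 (52.7, 50.8 and 51.9 FPKM) held 95.9% ± 0.417 and the osteoclast form Atp6v0d2 4.10% ± 0.417. The a subunit known from osteoclasts thus made up most of its pool and the d subunit known from osteoclasts a small part of its own. Atp6v1b1, Atp6v1c2 and Atp6v1g3 had 0, 2 and 0, 2, 0 and 0 and 0, 0 and 0 reads, against 45.3 ± 1.13 FPKM for Atp6v1b2 and 43.4 ± 8.37 for Atp6v1g1, Atp6v1g2 had 1.14 ± 0.127 FPKM and the testis form Atp6v1e2 0, 0 and 0 reads.

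**Figure D3:**
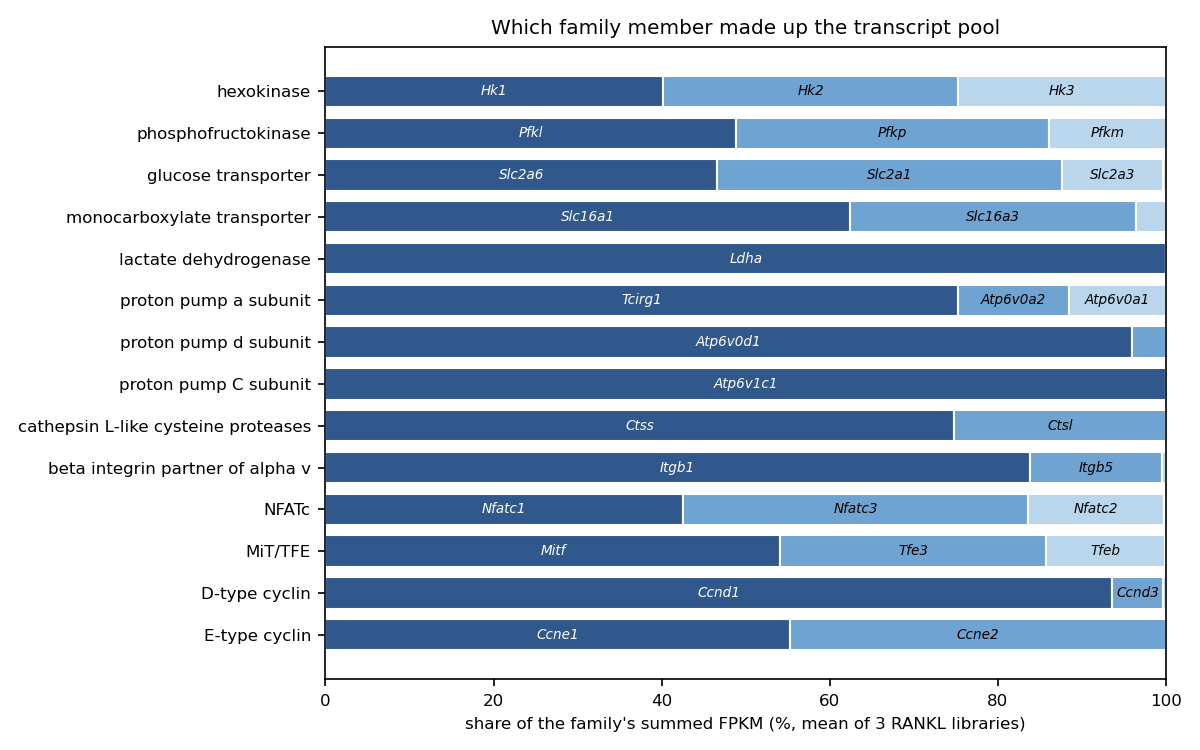
Share of each member in the summed FPKM of its family (horizontal axis, percent, mean of 3 RANKL libraries), members ordered from the left by share and labelled where above about 6%. Tcirg1, Atp6v0d1, Itgb1 and Ccnd1 each make up over 70% of their families, whereas hexokinases and NFATc factors are divided among several members.

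Of the beta integrins that can pair with the alpha v chain, whose gene Itgav had 9.25, 9.64 and 8.19 FPKM, Itgb1 (87.2, 90.2 and 78.1 FPKM) held 83.8% ± 1.29 of the summed FPKM, Itgb5 (16.0 ± 0.461 FPKM) 15.8% ± 1.25 and Itgb3, the partner used by osteoclasts to attach to bone, 0.441% ± 0.200, and Itgb6 and Itgb8 had no read. Among NFATc factors Nfatc1 held 42.6% ± 0.783, Nfatc3 41.0% ± 0.776, Nfatc2 16.1% ± 0.298 and Nfatc4 0.280% ± 0.0693.

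Metabolic genes were broadly detected: 228 of 242 genes, with 82 high. The glycolysis and lactate genes had 23 of 25 detected and 8 high (median percentile 91.1 ± 0.312). Behind Pkm came Ldha, which makes lactate, at 372, 340.4 and 353 FPKM, Aldoa, the main aldolase, at 322, 319 and 316 FPKM, and the isomerase gene Tpi1 at 246, 219 and 229 FPKM. Lactate dehydrogenase consisted of 1 gene: Ldhb, the form of oxidative tissues, had 0, 0 and 1 reads and Ldhc none. Aldoc held 9.46% ± 0.566 of the aldolase FPKM. The liver pyruvate kinase gene Pklr had 1, 0 and 0 reads.

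Glucose entry and its first steps drew on several genes. The hexokinase genes Hk1 (36.8, 32.7 and 35.6), Hk2 (31.4, 30.1 and 30.3) and Hk3 (20.8, 21.3 and 22.6 FPKM) held 40.2% ± 1.24, 35.1% ± 0.811 and 24.7% ± 1.19 of their pool, with Hk1 at 61.6% by mRNA length, and Hkdc1 with 0, 0 and 1 reads. The phosphofructokinases Pfkl, Pfkp and Pfkm held 48.9% ± 0.936, 37.1% ± 0.105 and 14.0% ± 0.959. By mRNA length Pfkp led with 53.9% over Pfkl with 36.9%. The glucose carriers Slc2a6 (32.5, 31.8 and 33.3 FPKM), a lysosomal form, and Slc2a1 (30.0, 28.2 and 27.8 FPKM), the basal carrier, did not overlap. Slc2a3 had 8.35 ± 0.247 FPKM, Slc2a4 0.270 ± 0.0767 and Slc2a2 no read. Lactate carriers were Slc16a1 (63.1, 67.8 and 62.4), Slc16a3 (37.2, 34.1 and 34.3) and Slc16a7 (3.65 ± 0.118 FPKM).

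Some glycolytic genes could not be read from 1 row. The protein_coding row matched to Gapdh had 29.8, 20.6 and 35.2 FPKM, with 85.6% of the reads of rows matched to that protein lying on other rows, mostly processed pseudogenes, so its level is uncertain. Pgk1 and Eno1 match more than 1 protein_coding row each and were left out of the list; the rows with reads had 437, 407 and 394 FPKM for Pgk1 (chromosome X) and 241, 239 and 253 FPKM for Eno1 (chromosome 4). The other enolase genes Eno3, Eno2 and Eno4 had 31.5 ± 1.88, 18.1 ± 0.201 and 0.431 ± 0.126 FPKM.

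All 31 tricarboxylic acid cycle genes were detected (median percentile 94.7 ± 0.0523), led by Sdhd (162 ± 7.62), the citrate synthase gene Cs (154, 146 and 149 FPKM) and the malate dehydrogenase gene Mdh1 (107 ± 2.20), with the pyruvate carboxylase gene Pcx (4.40 ± 0.148) and the kinase gene Pdk2 (3.91 ± 0.313 FPKM) lowest. Of the 79 respiratory chain nuclear subunits, 76 were detected and 38 high (median percentile 94.9 ± 0.299). Their place against glycolysis depended on length: without division by length their median percentile was 81.9 and that of the glycolysis and lactate genes 89.6. Atp5a1 (329, 299 and 314 FPKM), the alpha subunit of ATP synthase, led, followed by Atp5l (258, 225 and 241) and Atp5b (252, 225 and 237 FPKM), which overlapped. By complex the median FPKM was 37.5 ± 3.05 over 36 genes of complex I, 75.1 ± 3.11 over 4 of complex II, 71.9 ± 4.42 over 9 of complex III, 68.6 ± 2.32 over 17 of complex IV and 70.4 ± 2.74 over 15 of complex V. The complex II genes are counted in the tricarboxylic acid cycle list and not among the 79. The median of complex I was the lowest in each library.

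Tissue forms of cytochrome oxidase held the smaller part of their families, though Cox6a2 still had 30.7, 30.0 and 32.4 FPKM. Cox4i2 held 0.902% ± 0.189 of the subunit 4 FPKM against Cox4i1, and the muscle forms Cox6a2 and Cox7a1 held 14.2% ± 1.10 and 2.90% ± 0.0935 against Cox6a1 and Cox7a2. The lowest chain genes were Ndufa4l2 (0.381, 0.397 and 0.420 FPKM) and the testis form Cox6b2 (0, 0 and 4 reads). Ndufb2, a structural subunit of complex I, had only 0.857, 0.835 and 1.19 FPKM over a listed length of 5628 bases. Genes encoded by mitochondrial DNA were not analysed here.

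Genes of fat and amino acid metabolism spanned a wide range. Of the fatty acid oxidation genes, 22 of 26 were detected (median percentile 77.1 ± 0.0759): Etfa, an electron carrier, had 116, 103 and 116 FPKM, Acsl5 82.6 ± 1.74 and Acadl 74.8 ± 5.58, while Ppara and Decr1 had 0, 3 and 0 and 0, 0 and 2 reads. Cpt1a, which admits fatty acids to mitochondria, had 24.3, 22.6 and 24.5 FPKM and held 97.2% ± 0.925 of its family over Cpt1c and the row named Cpt1b, though a second protein_coding row matched to Cpt1b had 4.60, 5.57 and 5.78 FPKM. Of the fatty acid and cholesterol synthesis genes, 31 of 33 were detected (median percentile 79.6 ± 0.281), with the desaturase genes Scd2 (134, 136 and 132), Fads2 (83.3 ± 5.60) and Fads1 (82.2 ± 2.87) highest and Fdps (0.701 ± 0.146) and Acacb (0.563 ± 0.0343 FPKM) lowest. The glutamine and amino acid genes had 22 of 25 detected (median percentile 93.5 ± 0.0710), led by Got2 (172 ± 12.1), Shmt2 (167 ± 14.6) and Slc38a2 (135 ± 6.65), with Gls2 (0.437 ± 0.0969) and Arg1 lowest. All 23 pentose phosphate and nucleotide genes were detected (median percentile 91.4 ± 0.566), from Hprt (168, 184 and 172), Paics (146 ± 3.47) and Taldo1 (125 ± 5.83) down to Rpia (8.77 ± 0.619) and Dhodh (3.67 ± 0.291 FPKM).

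Genes of every phase of the cell cycle were detected. All 43 DNA replication genes and all 50 G2/M and mitosis genes were detected, with 7 and 13 high and median percentiles of 89.7 ± 0.641 and 92.2 ± 0.112. Mki67, the proliferation antigen, stood at 140.1, 158 and 144 FPKM (rank 258; MGP_C57BL6NJ_G0033630, chromosome 7, 145865498 to 145892056), with replicate 2 the highest. Top2a, which untangles sister chromatids, had 112, 119.7 and 115 FPKM. The checkpoint gene Bub3 had 109, 89.4 and 107 FPKM, the kinase gene Cdk1 36.8, 35.2 and 34.2 FPKM and its cyclin gene Ccnb1 30.3, 29.5 and 28.9 FPKM. The lowest mitotic genes were the phosphatase gene Cdc25c (13.8, 14.8 and 14.3 FPKM) and the centriole kinase gene Plk4 (11.8, 10.8 and 10.5 FPKM).

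In replication, the sliding clamp gene Pcna had 190.0, 161 and 193 FPKM and the maintenance methylase gene Dnmt1 183, 168 and 179.7 FPKM, overlapping. Of the helicase genes, Mcm5 had 81.3, 73.1 and 82.0 FPKM, Mcm3 78.6 ± 2.66 and Mcm2 33.0, 29.4 and 31.1 FPKM. Fen1 (6.49 ± 0.525) and Orc1 (4.47 ± 0.274 FPKM) were lowest. Of the G1/S genes, 18 of 20 were detected (median percentile 76.4 ± 0.545). The D-type cyclin pool consisted mainly of Ccnd1 (114, 117 and 113 FPKM; 93.6% ± 0.469 of the summed FPKM), followed by Ccnd3 (7.41 ± 0.451 FPKM) and Ccnd2 (0.425 ± 0.0822 FPKM), while Ccne1 and Ccne2 divided their pool (55.2% ± 2.65 and 44.8% ± 2.65). Ccnd3 held 6.06% ± 0.441, and 20.7% by mRNA length. Cdk4 (85.0 ± 5.34) and E2f4 (51.0 ± 3.81 FPKM) came after Ccnd1, and Myb had 0, 0 and 1 reads.

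**Figure D4:**
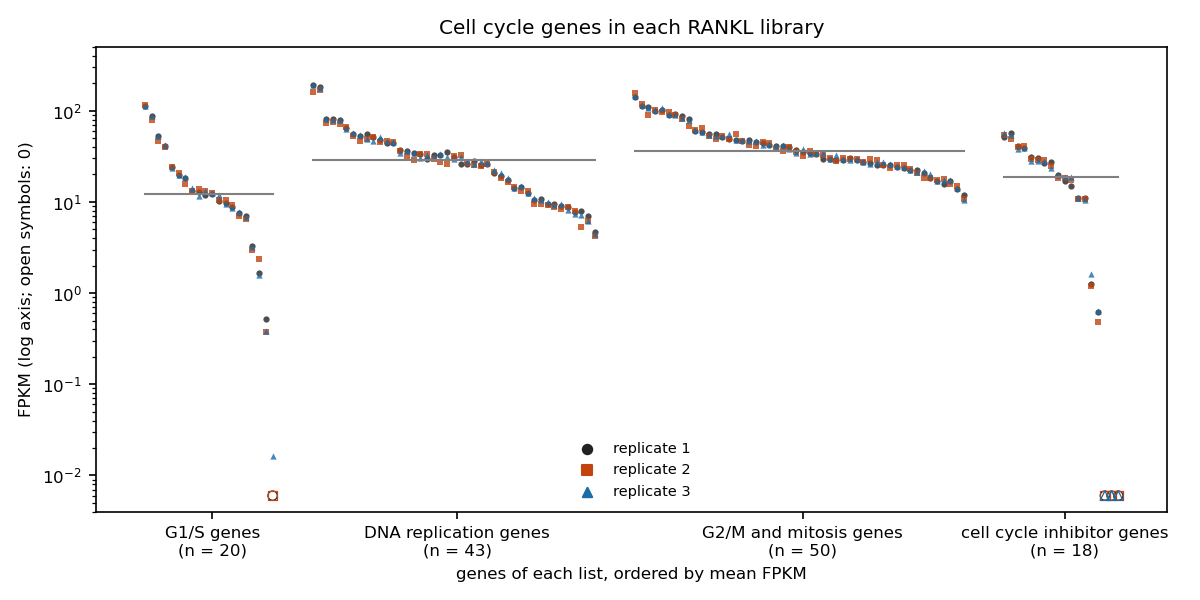
FPKM (log axis) of every matched gene of the 4 cell cycle lists in each RANKL library, genes ordered by mean within a list, symbols and colours for replicates, grey lines for list medians and open symbols for values of 0. All replication and mitosis genes lie above 1 FPKM, and the 3 open columns at the right are Cdkn1c, Cdkn2a and Cdkn2b.

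Inhibitors of the cycle were also detected in part (14 of 18; median percentile 83.3 ± 0.484). Trp53 had 51.3, 53.5 and 57.1 FPKM, Cdkn1a, which encodes p21, 57.4, 49.5 and 54.4 FPKM, Cdkn2d 39.8 ± 1.64 FPKM and Cdkn1b, which encodes p27, 26.5, 28.9 and 27.9 FPKM, the ranges of Trp53 and Cdkn1a overlapping. Cdkn2a and Cdkn2b, neighbours on chromosome 4 (92597506 to 92621052 and 92632692 to 92637435), had no read in any library, which allows up to 0.187 and 0.157 FPKM. The genes around them were looked at after these values were seen: Mtap, 92455634 to 92505076, had 27.8, 27.4 and 26.9 FPKM, and Dmrta1, from 93009117, had no read. The imprinted inhibitor gene Cdkn1c had no read either (chromosome 7; upper limit 0.114 FPKM).

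The promoters of Mki67 and Mcm5 are shown as the highest mitosis gene whose window holds both TTTGAA, the cell cycle homology element, and CCAAT, and the highest replication gene whose window holds TTTGGCGC or TTTCCCGC, the letters of the E2F site. Both come from RefSeq on GRCm38.p6 (chr7:135716330-135716629, minus strand, and chr8:75109259-75109558, plus strand), are written along the gene and have the matches on either strand in capitals. Only E2F letters are marked in Mcm5, and TTTGAA and CCAAT in Mki67.
Mki67: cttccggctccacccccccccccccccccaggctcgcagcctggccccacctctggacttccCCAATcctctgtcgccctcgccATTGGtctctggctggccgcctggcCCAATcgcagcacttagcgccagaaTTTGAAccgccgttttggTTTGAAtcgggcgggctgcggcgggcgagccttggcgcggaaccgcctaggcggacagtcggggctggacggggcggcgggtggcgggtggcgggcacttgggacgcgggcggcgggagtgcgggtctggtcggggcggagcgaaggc
Mcm5: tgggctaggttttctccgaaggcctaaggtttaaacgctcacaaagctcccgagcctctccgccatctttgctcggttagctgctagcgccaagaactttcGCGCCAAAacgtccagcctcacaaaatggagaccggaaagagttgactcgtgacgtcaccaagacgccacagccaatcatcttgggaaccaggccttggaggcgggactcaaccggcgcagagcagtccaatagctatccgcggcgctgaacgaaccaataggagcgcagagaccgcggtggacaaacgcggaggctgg
TTTGAA together with CCAAT occurred in 26 of 41 windows of mitosis genes (63.4%) and 4 of 34 of replication genes. The share was 2 of 15 in G1/S genes, 4.96% in windows of detected genes and 6.02% in all windows. The E2F letters occurred in 10 of 34 windows of replication genes (29.4%) and 5 of 15 of G1/S genes (33.3%). They were in 2 of 41 windows of mitosis genes, 3.59% of windows of detected genes and 2.31% of all windows. Across the whole table, windows of detected genes held the GC box GGGCGG more often than those of other protein_coding symbols (67.4% and 33.5%) and TATAAA less often (6.08% and 18.3%); no test was made of any of these shares.

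The 3 libraries were alike in level. The median coefficient of variation (SD over mean) of detected genes was 5.77%, against 3.70% from read counting alone, and 254 of 9783 genes exceeded 20%. It was 9.02% for genes of 1 to 5 FPKM and 4.84% above 100 FPKM. Across the detected genes of these libraries, which are not independent points, Spearman's rho between pairs of libraries was 0.994 to 0.995. Replicate 2 was lower in short mRNAs and higher in long ones: its median log2 deviation from the gene's mean was -0.08 in 429 genes of at least 5 FPKM with an mRNA under 1000 bases and 0.07 in 317 over 8000 bases. Replicate 2 also deviated by -0.07 (median, log2) in the detected respiratory chain genes and -0.06 in the cathepsin list. The part of mRNA length in these differences was not tested.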

How the data were processed

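The 3 RANKL columns of the deposited raw count table and of the matching FPKM table were used. HISAT2 2.2.1, DESeq2 1.42.0, featureCounts 2.0.6-p3, CASAVA 1.8 and fastp appear in the submitters' processing notes, which are known here only as names without roles. A genome build was not found there. Gene identifiers carry the Ensembl prefix of the C57BL/6NJ assembly, and coordinates of genes are those of the table. The counts deposited by the authors are whole reads per gene. The FPKM deposited by the authors equalled count over listed gene length over 1 total per library, 0.0710%, 1.65% and 1.59% above the column totals.

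Ranks, percentiles, list medians and shares were computed with pandas and numpy (Python) on protein_coding rows, and the procedure was tested on simulated data. Pandas was version 2.3.3, numpy 2.4.6 and Python 3.11.15. TMM scaling used edgeR 4.0.16 (R 4.3.3). Rows without a symbol were named from a unique mouse protein match (328 rows; 14 listed genes). The members and lists were chosen with earlier results of these data known. Named genes were the 20 highest with a symbol outside ribosomal protein genes, the 3 highest and 2 lowest of each list, a set of lineage, lysosomal, metabolic and cell cycle genes whatever their level, and family members; some of these are not reported here, and others were chosen after their values were seen. No test was made, since there is 1 group. Sequences are RefSeq's. Alternatives were other detection limits, other reference sets, no division by length, the GENCODE M21 mRNA length (found for 91.6% of protein_coding and 94.8% of detected rows) and leaving out each library.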

Additional observations from a re-analysis of the deposited data

Results flagged for a closer look

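Rows outside the protein_coding biotype that match the protein of a listed gene and had a mean of at least 50 FPKM were set apart because they hold signal that the report does not use. For Lyz2, the macrophage lysozyme, 2 rows without a biotype had mean levels of 4086 and 3729 FPKM; the first had 4110.3, 4345 and 3804 FPKM in replicates 1, 2 and 3 and the second 3760.3, 3657 and 3769 FPKM. Both exceeded every Pkm value, and the first lies on chromosome 10, as does a row without a biotype matched to Lyz1 at 804 FPKM. How reads were divided between these near-identical genes was not stated in the labels.

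Processed pseudogene rows matched to Tpt1, a translationally controlled tumour protein gene, had 1179 and 897 FPKM, against 91.3, 46.9 and 75.1 FPKM in the protein_coding row. Those matched to Gapdh had 380.1, 179, 102, 89.0 and 64.9 FPKM. Single pseudogene rows matched Ppia (110.1 FPKM), Eef2 (57.9 FPKM) and the complex I gene Ndufa12 (51.3 FPKM). In all, 18 listed genes had at least 10% of the reads of their protein on other rows, and their levels are uncertain.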

How the results depend on the processing

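The count of detected genes was 10303 at 0.5 FPKM, 7545 at 5 FPKM, 10806 at 10 reads in all 3 libraries and 14001 with any read in any library, against 9783. Leaving out 1 library gave 9823 to 9841. Median percentiles depend on what they are counted among. Among all rows they were 84.2 for macrophage surface genes, 82.4 for osteoclast resorption genes, 94.7 for lysosomal hydrolases, 95.3 for glycolysis, 97.3 for the respiratory chain, 94.6 for replication and 95.9 for mitosis. Among detected rows, over detected members, they were 81.6 for macrophage surface genes, 47.2 for osteoclast resorption genes, 78.9 for lysosomal hydrolases, 82.6 for glycolysis, 90.1 for the respiratory chain, 78.4 for replication and 83.7 for mitosis. Without division by length they were 65.7 for macrophage surface genes, 74.9 for osteoclast resorption genes, 87.5 for lysosomal hydrolases, 89.6 for glycolysis, 81.9 for the respiratory chain, 84.0 for replication and 92.5 for mitosis. With an mRNA length they were 71.0 for macrophage surface genes, 72.1 for osteoclast resorption genes, 87.8 for lysosomal hydrolases, 90.1 for glycolysis, 95.5 for the respiratory chain, 89.2 for replication and 92.3 for mitosis. The mRNA length moved 39 of 72 family shares and 24 of 32 list medians by more than 1 SD of the 3 libraries, and the share of protein_coding reads in place of FPKM moved 31 of 32 list shares. With TMM-scaled counts the median coefficient of variation was 5.74%, and the median SD of log2(FPKM + 0.1) was 0.0824 against 0.0752 for log2(FPKM + 1). No paired analysis was possible because only 1 group was used. Levels below 1 FPKM can rest on few reads (7, 5 and 8 for Ctsk), and at this depth a gene with no read is not shown to be silent.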
